A study of Mus musculus with 6 samples.

Results

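DNA replication genes are taken here as 35 genes of origin licensing, the replication fork and nucleotide supply. They were chosen by name, with earlier results of these data known, so no test of the set was made. Every probe set that the array annotation maps to exactly 1 of these symbols was used. All 35 genes were represented, by 79 of the 45037 probe sets tested, 27 genes by more than 1 probe set and 8 by 1. A further probe set that names both Tyms and a Tyms pseudogene was left aside by this rule. The arrays held RNA from ocular lenses of mouse embryos at embryonic day 19.5, with a genetic background that mixed C57BL/6 and FVB/N. The wild type group was 3 littermates in which Notch2, a Notch receptor, was not ablated in the lens, and the notch2 mutant group was 3 embryos with a lens-specific conditional ablation of Notch2; both lenses of an embryo were pooled for each array. The promoter that drove the recombinase, the deleted exons and the genotype of the controls at the recombinase locus are not given in the sources used here.

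Before a cell divides it copies its DNA once. Origins are licensed when the origin recognition complex, Cdc6 and Cdt1 load the ring-shaped MCM helicase onto DNA. Kinases then switch the helicase on with Cdc45, GINS and Mcm10, and primase, polymerases, the sliding clamp Pcna and its loader copy both strands from deoxynucleotides that ribonucleotide reductase and thymidylate synthase supply. Most of these genes are E2F targets that cells transcribe around the G1 to S transition. In the lens, dividing cells lie in the anterior epithelium, and cells leave the cycle as they become fibre cells.

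The deposited values are log2 intensities centred so that every probe set has a median of 0 across the 6 arrays, and a value is a difference from that median and not a level. No level could be compared between genes, and the tissue could not be checked by the level of lens markers. Centring also means that where the groups do not overlap, the highest wild type and the lowest mutant array lie equally far below and above 0. Differences are mutant minus wild type on the log2 scale, with limma's standard error (SE) and its p adjusted by Benjamini-Hochberg over all 45037 probe sets, and n = 3 per group. Arrays in sentences of values run from replicate 1 to replicate 3 of each group. In bulk tissue, more cells that express a gene cannot be told apart from more RNA per cell.

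Across the whole series, 132 probe sets passed as higher in mutants and 79 as lower. The array standard deviation was 0.384 in wild type 3 and 0.223 to 0.332 in the other 5 arrays. The mean of 18 hybridization control probe sets was dim in wild type 1, wild type 2 and mutant 1 (-1.5 to -0.988) and bright in the other 3 arrays (0.991 to 1.485). Neither of the 2 Notch2 probe sets separated the groups: the wild type arrays gave -0.38, -0.41 and 0.43 and the mutant arrays -0.65, 1.39 and 0.38 on the first, and 0.44, 0.08 and -0.08 against 0.10, -0.56 and -0.36 on the second.

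Because these genes share E2F control in general, their promoters were searched for 4 spellings of the E2F motif, TTTCCCGC, TTTGGCGC, TTTCGCGC and TTTGCCGC, and for the CCAAT box, on both strands, in 300 bases from 250 before to 50 after each RefSeq start (assembly GRCm38.p6). RefSeq promoters were at hand for 28 of the 35 genes. An E2F spelling stood in 12 of their 33 promoters, or 36.4%, and in 2.26% of all 32851 promoters. The CCAAT box stood in 63.6% of the 33 and in 37.4% of all. For comparison, promoters of the other replication genes and of the mitosis genes, both described below, were searched too. An E2F spelling stood in 26.7% of the former and 3.7% of the latter, and the CCAAT box in 40% and 74.1%. The 200 bases before the start are printed for 4 genes, each with its motifs in capitals. Mcm6 has 3 E2F spellings and the largest difference among licensing genes, Mcm5 holds 2 overlapping ones, Pola1 represents the polymerases, and Rrm2 is the gene that passed the test.
Mcm6, minus strand, chr1:128359706-128359905: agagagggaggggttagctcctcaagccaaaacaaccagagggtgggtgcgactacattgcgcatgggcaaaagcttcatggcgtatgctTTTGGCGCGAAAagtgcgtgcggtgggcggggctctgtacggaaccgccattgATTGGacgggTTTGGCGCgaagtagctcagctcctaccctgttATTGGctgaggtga
Mcm5, plus strand, chr8:75109309-75109508: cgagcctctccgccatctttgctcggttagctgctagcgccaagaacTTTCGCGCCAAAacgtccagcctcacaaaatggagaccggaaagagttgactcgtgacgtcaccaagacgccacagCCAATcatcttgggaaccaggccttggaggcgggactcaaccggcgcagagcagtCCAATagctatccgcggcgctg
Pola1, minus strand, chrX:93632156-93632355: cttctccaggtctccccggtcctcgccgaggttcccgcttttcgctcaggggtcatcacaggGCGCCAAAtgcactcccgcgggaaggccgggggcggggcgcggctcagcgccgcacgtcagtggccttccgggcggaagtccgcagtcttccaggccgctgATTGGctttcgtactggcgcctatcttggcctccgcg
Rrm2, plus strand, chr12:24708054-24708253: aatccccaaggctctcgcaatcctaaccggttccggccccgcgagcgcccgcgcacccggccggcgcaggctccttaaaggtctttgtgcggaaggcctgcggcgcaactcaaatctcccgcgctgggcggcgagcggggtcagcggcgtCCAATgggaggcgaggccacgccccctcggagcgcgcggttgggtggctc

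In Mcm6, an E2F spelling at -110 overlaps another on the opposite strand at -106, and 1 more lies at -47 between CCAAT boxes at -57 and -14. Mcm5 has such an overlapping pair at -153 and -149, and Pola1 has 1 spelling at -138. Rrm2 has a CCAAT box at -50 and none of the 4 spellings in this window, which says only that these letters are not there. The 12 genes with an E2F spelling had a median difference of 0.55 (0.02 to 1.23), and the 16 without one had a median of 0.37 (-0.44 to 1.24), so the ranges of both groups overlapped widely. The values follow.

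**Figure D1:**
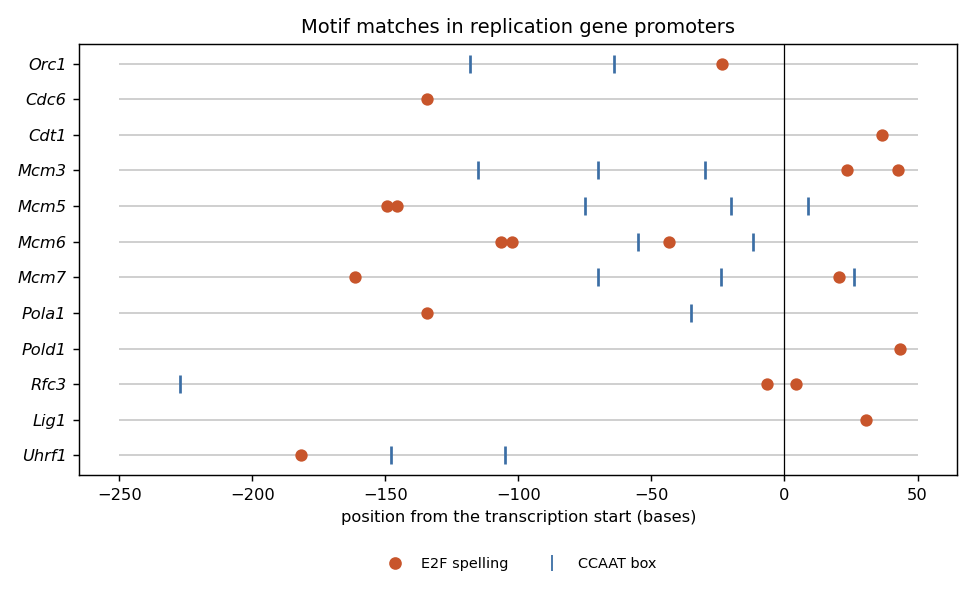
Positions of E2F spellings (circles) and CCAAT boxes (ticks) in the promoters of the 12 replication genes that hold an E2F spelling, in bases from the transcription start (x axis), 1 gene a row. Matches lie on both sides of the start, and Mcm6 has the most E2F spellings, with 3.

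Replication genes read higher in Notch2 mutant lenses as a group, although Rrm2 alone passed the test. Of the 79 probe sets, 2 passed as higher, both of Rrm2, where 0.293% of all probe sets passed in that direction, and 0 passed as lower, where 0.175% of all did. In 70 of the 79 the difference was above 0, against 47.0% of all probe sets. The median difference was 0.38, with a range of -0.44 to 1.24, while the median over all probe sets was -0.02. At an unadjusted p below 0.05, limma gave 38 member probe sets as higher and 0 as lower, against 6.11% and 5.46% of all probe sets.

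Separation of the groups showed the same direction. All 3 mutant arrays lay above all 3 wild type arrays in 35 of the 79 probe sets, or 44.3%, against 8.73% of all probe sets. The reverse order occurred in 0 of the 79, against 9.10% of all. With each gene represented by its probe set of greatest spread (standard deviation) across all 6 arrays, 32 of 35 genes read above 0 and 19 had groups that did not overlap, against 45.9% and 9.48% of the 18193 genes. By this measure 1 member gene of 35 passed as higher, against 0.489% of genes, and the median was 0.52. The mean of all probe sets of a gene gave a smaller median of 0.35 and 3 genes that passed. Most of the differences were below the size that passed: 33 member probe sets exceeded 0.5 and 3 exceeded 1.

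**Figure D2:**
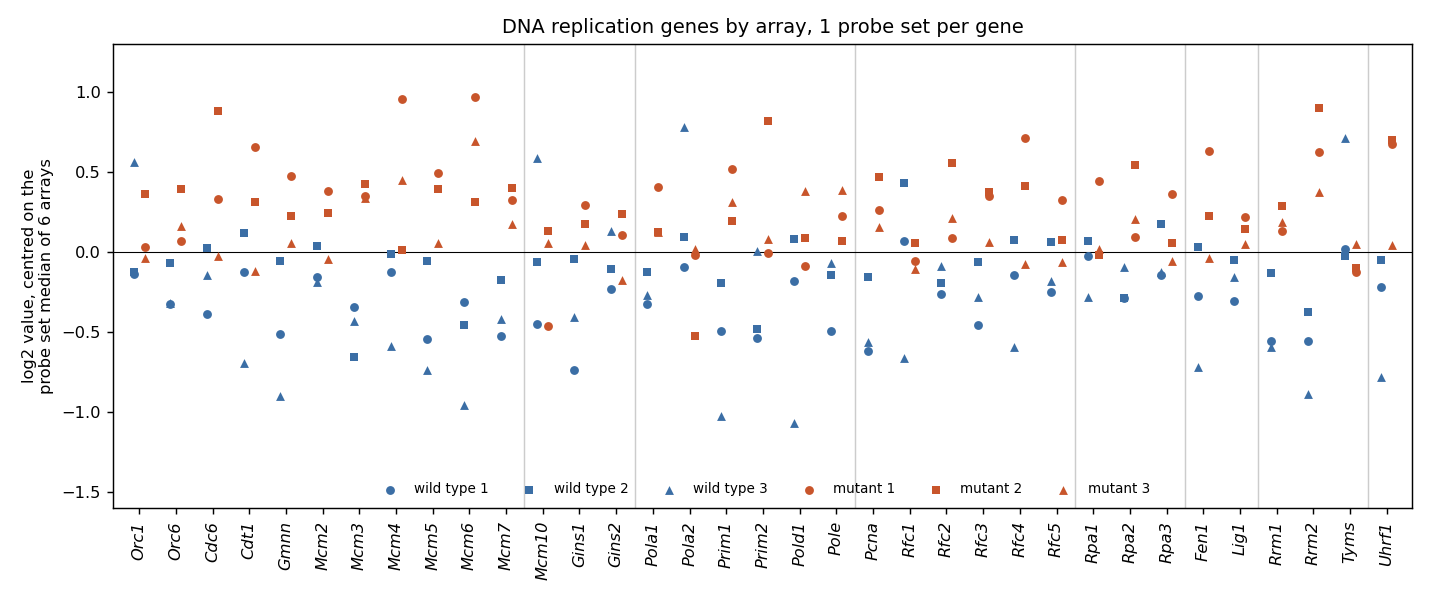
Centred log2 values (y axis) of the 35 replication genes, 1 probe set per gene, in 3 wild type (blue) and 3 mutant (orange) arrays; vertical lines separate the roles, from licensing on the left to nucleotide supply and Uhrf1 on the right. In 19 genes the orange points all lie above the blue ones, with the widest gap in Rrm2, and wild type 3 stands alone at the top in Orc1, Pola2, Tyms and Mcm10.

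Nucleotide supply held the gene that passed. Rrm2 encodes the small subunit of ribonucleotide reductase, the enzyme that makes deoxynucleotides, and it rose. On its most variable probe set, of the _x_at kind, which can bind related transcripts, the wild type arrays gave -0.55, -0.38 and -0.89 and the mutant arrays 0.63, 0.90 and 0.38. The difference was 1.24 (SE 0.20, 2.36-fold, adjusted p = 0.0422). On another probe set the values were -0.64, -0.46 and -0.54 against 0.46, 0.67 and 0.48, a difference of 1.09 (SE 0.15, adjusted p = 0.0358). Both probe sets kept the groups well apart, and on the first the gap between the lowest mutant and the highest wild type array, 0.752, was the widest of the 35 genes. The remaining Rrm2 probe set gave -0.21, -0.17 and -0.73 against 0.22, 0.17 and 0.37, which is also without overlap, with a smaller difference of 0.62 (SE 0.19, adjusted p = 0.217). Neither call held when any 1 array was left out: the adjusted p was then 0.0532 to 0.197 on the first probe set and 0.0527 to 0.197 on the second, with differences of 1.10 to 1.37 and 1.02 to 1.13.

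Rrm1, the large subunit, did not pass. Its most variable probe set gave -0.56, -0.13 and -0.59 against 0.13, 0.29 and 0.19, a difference of 0.63 (SE 0.17, adjusted p = 0.173). A second probe set had a near-equal difference of 0.64, and the other was at 0.08. Rrm2b, the alternative small subunit that p53 induces, was looked up after its values were seen, and its 4 probe sets read below 0, from -0.53 (SE 0.26, adjusted p = 0.483) to -0.22, so the subunits of this enzyme lay on both sides of 0. Tyms, thymidylate synthase, was the exception among the supply genes, and its probe sets disagreed. The most variable gave 0.02, -0.02 and 0.72 against -0.12, -0.10 and 0.05 (difference -0.29, SE 0.21, adjusted p = 0.673). Wild type 3 alone was high there, and the other 5 arrays lay close together. A second Tyms probe set gave -0.34, -0.31 and 0.03 against -0.03, 0.38 and 0.29 (0.42, SE 0.18, adjusted p = 0.413), with overlap, and the other two were at -0.07 and -0.05.

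In origin licensing, all 11 genes read above 0 by their most variable probe set, against 45.9% of all genes, and the median was 0.67. The groups were apart as higher in 7, or 63.6%, against 9.48% of all genes. None passed. In limma 8 of the 11 had an unadjusted p below 0.05 as higher, against 1495 of all 18193 genes. Of the 27 licensing probe sets 25 were above 0.

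The MCM2-7 proteins form the ring of the replicative helicase, and their 6 genes ranged from 0.29 in Mcm2 to 1.23 in Mcm6, with 18 of 19 probe sets above 0. Mcm6 gave -0.31, -0.45 and -0.96 in wild type and 0.97, 0.31 and 0.69 in mutants (1.23, SE 0.23, adjusted p = 0.0587). All mutant arrays were higher, and this probe set is also of the _x_at kind. Another Mcm6 probe set was at 0.80 without overlap and the third at 0.12. The Mcm6 value was near the threshold and passed under 6 alternatives, with limma's adjusted p between 0.00232 and 0.0428. The lowest came from keeping the more variable probe sets, a choice by a spread that a group difference widens. Mcm6 did not pass when any 1 array was left out (adjusted p = 0.103 to 0.197). Mcm3 was close to the threshold as well, at -0.34, -0.65 and -0.43 against 0.35, 0.42 and 0.34 (0.85, SE 0.15, adjusted p = 0.0544). Its mutant arrays agreed closely, with a standard deviation of 0.0451. Of the other 4 Mcm3 probe sets, 3 lay between 0.38 and 0.66 and 1 read -0.04, with values of 0.04, -0.30 and 0.41 against -0.04, -0.14 and 0.23.

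Mcm4, Mcm5 and Mcm7 stood between Mcm2 and Mcm3, at 0.71, 0.76 and 0.67, each with groups that did not overlap. The most variable probe sets are of the _x_at kind for Mcm4 and Mcm5 and of the _s_at kind for Mcm3 and Mcm7. In Mcm5 the wild type arrays gave -0.55, -0.06 and -0.73 and the mutant arrays 0.50, 0.39 and 0.06 (SE 0.21, adjusted p = 0.177). Wild type 2 and mutant 3 came closest to each other there. Mcm7 was above 0 on all 4 of its probe sets, from 0.31 to 0.67. By the most variable probe set of each gene, Mcm2 was the smallest of the ring genes, and its arrays overlapped, at -0.15, 0.04 and -0.19 against 0.38, 0.24 and -0.04 (0.29, SE 0.17, adjusted p = 0.576).

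The loaders of the ring and their inhibitor read in the same direction. Cdt1, which brings MCM to origins, gave -0.13, 0.12 and -0.69 against 0.66, 0.32 and -0.12 on its most variable probe set (0.52, SE 0.26, adjusted p = 0.501). Mutant 3 was level with the wild type arrays there. A second Cdt1 probe set had no overlap, at -0.29, -0.14 and -0.22 against 0.48, 0.61 and 0.14 (0.63, SE 0.17, adjusted p = 0.166), and the third read 0.15, 0.06 and -0.10 against -0.21, -0.06 and 0.06 (-0.11, SE 0.16). Gmnn encodes geminin, which binds Cdt1 and blocks a second round of licensing; it gave -0.51, -0.06 and -0.90 against 0.48, 0.23 and 0.06 (0.74, SE 0.23, adjusted p = 0.226). Cdc6, the ATPase that works with Cdt1, was at 0.56 (SE 0.24, adjusted p = 0.403) with mutant 2 highest at 0.88 and mutant 3 at -0.03, below wild type 2.

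In the origin recognition complex, which marks the origins, Orc6 was at 0.44 (SE 0.16, adjusted p = 0.322) without overlap. Orc1 showed no separation, at -0.14, -0.13 and 0.57 against 0.03, 0.37 and -0.03 (0.02, SE 0.22, adjusted p = 0.985). Wild type 3 was the highest array on that probe set, and the other Orc1 probe set was at 0.19. Together with Orc2, Orc3, Orc4 and Orc5, which are not among the 35, the 6 subunits had a median of 0.21 and a range of -0.04 to 0.44.

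The helicase activation genes were mixed, with a median of 0.13 over 3 genes. Gins1, a subunit of the GINS complex that travels with MCM, gave -0.73, -0.04 and -0.40 against 0.30, 0.17 and 0.04 (0.56, SE 0.20, adjusted p = 0.294), without overlap, while its second probe set read 0.06. Gins2 read 0.13 and 0.21 on its probe sets, with overlap on both. Mcm10, which helps to activate the loaded helicase, had probe sets that disagreed. The most variable gave -0.45, -0.06 and 0.59 against -0.46, 0.13 and 0.06 (-0.12, SE 0.27, adjusted p = 0.918), with wild type 3 far above the other arrays and mutant 1 and wild type 1 lowest. Another gave -0.20, -0.07 and -0.48 against 0.07, 0.14 and 0.17 without overlap (0.38, SE 0.16, adjusted p = 0.410), and the third was at -0.07.

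Among the polymerase and primase genes the primase gene Prim1 had the largest difference. Prim1, the catalytic primase subunit that makes the RNA primer, gave -0.49, -0.19 and -1.02 against 0.52, 0.19 and 0.31 (0.91, SE 0.22, adjusted p = 0.124). Its second probe set was at 0.82 (SE 0.16, adjusted p = 0.0683), and both kept the groups apart. The partner subunit Prim2 was at 0.63 (SE 0.25, adjusted p = 0.366), with wild type 3 at 0.01 just above mutant 1 at -0.01. Its other probe sets read 0.18 and 0.12.

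Pola1, the catalytic subunit of the polymerase that extends the primer, gave -0.32, -0.13 and -0.27 against 0.41, 0.13 and 0.13 (0.46, SE 0.16, adjusted p = 0.277), without overlap. The second Pola1 probe set was at 0.15, with overlap. Pola2, the regulatory subunit of that polymerase, had the lowest difference of all 79 probe sets. That probe set gave -0.09, 0.10 and 0.78 against -0.02, -0.52 and 0.02 (-0.44, SE 0.25, adjusted p = 0.581). Wild type 3 and mutant 2 lay far out on it and the other 4 arrays were close together. A second Pola2 probe set gave -0.06, 0.40 and 0.51 against -0.10, 0.06 and -0.10 (-0.33, SE 0.18), and the third went the other way at -0.31, 0.06 and -0.31 against 0.20, 0.22 and -0.06 (0.31, SE 0.17). No Pola2 probe set separated the groups. For the catalytic subunits of the leading and lagging strand polymerases, Pole was at 0.46 (SE 0.17, adjusted p = 0.336) without overlap, and Pold1 gave -0.18, 0.08 and -1.07 against -0.08, 0.09 and 0.38 (0.52, SE 0.28, adjusted p = 0.556), with overlap. Wild type 3 alone was far down on Pold1, and without it the difference was 0.17.

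Pcna, the ring that tethers polymerases to DNA, had 1 probe set, with -0.62, -0.16 and -0.56 in wild type and 0.26, 0.47 and 0.16 in mutants (0.74, SE 0.18, 1.67-fold, adjusted p = 0.121). Its groups lay clearly apart, but the difference did not pass. The clamp loader opens this ring, and its subunits differed from each other. Rfc1, the large subunit, gave 0.07, 0.43 and -0.66 against -0.06, 0.06 and -0.11 (0.02, SE 0.26, adjusted p = 0.987), and its other probe sets were at 0.12 and 0.05. The wild type arrays of Rfc1 spanned more than the whole mutant range. The small subunits Rfc2, Rfc3, Rfc4 and Rfc5 were at 0.47, 0.53, 0.57 and 0.24, and Rfc2 and Rfc3 had no overlap. Further Rfc2 probe sets overlapped, at 0.23 and 0.19, while the second of Rfc3 did not, at 0.32. A second Rfc4 probe set, of lower spread, gave a uniform -0.29, -0.27 and -0.30 against 0.42, 0.46 and 0.27 (0.67, SE 0.14, adjusted p = 0.0812). All 11 loader probe sets were above 0, but the first Rfc1 value became -0.11 when quantile normalisation was repeated.

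**Figure D3:**
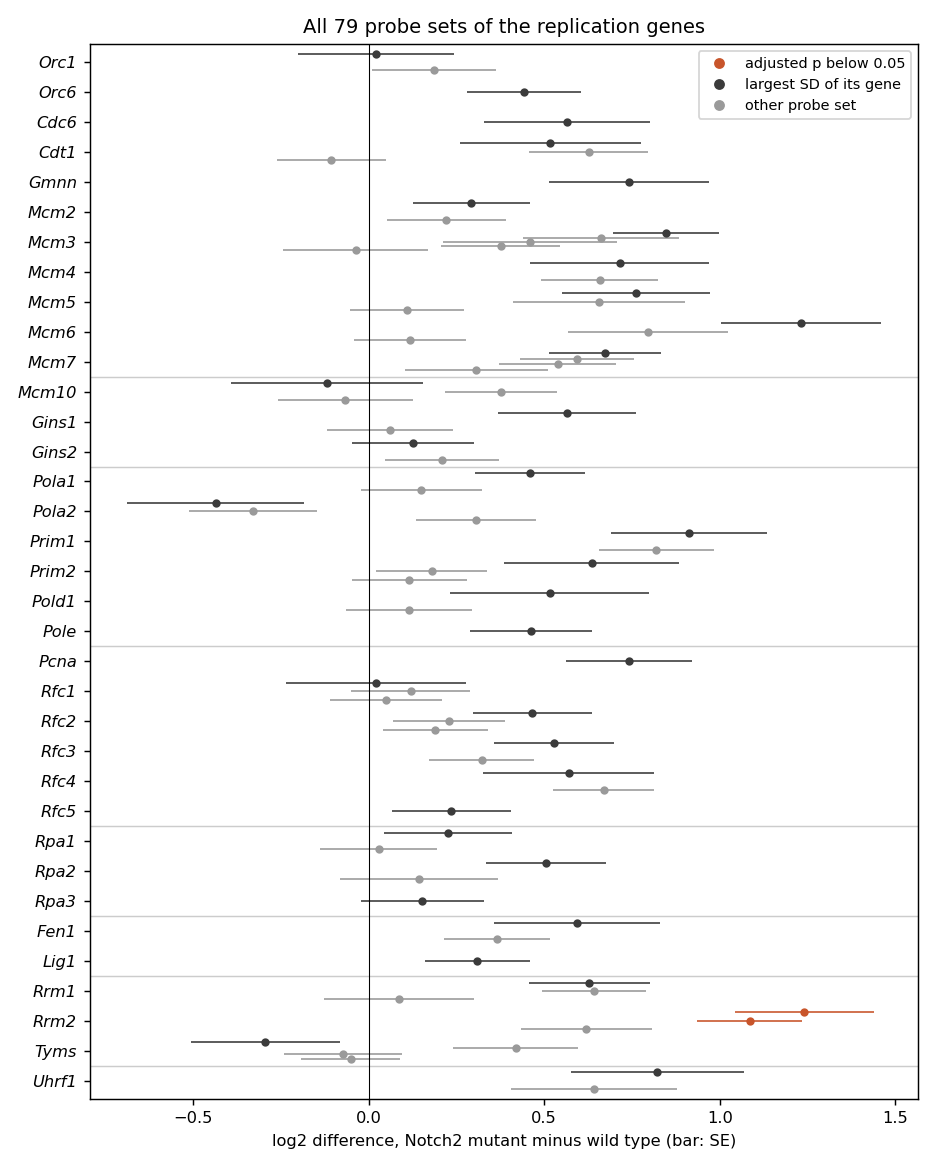
Log2 difference, mutant minus wild type (x axis), with limma's SE as bars, for each of the 79 probe sets, 1 gene a row in order of role. Points to the right of 0 are higher in mutants; the 2 orange points are the Rrm2 probe sets that passed, and Pola2, Tyms, Mcm10, Cdt1 and Mcm3 have probe sets on both sides of 0.

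RPA coats single-stranded DNA at the fork. Rpa2, its middle subunit, was at 0.50 (SE 0.17, adjusted p = 0.275), with -0.29, -0.29 and -0.09 against 0.09, 0.55 and 0.21. The second Rpa2 probe set was at 0.14 (SE 0.23, adjusted p = 0.869) with overlap, and mutant 3 was its lowest array at -0.42. The large and small subunits of RPA overlapped between groups as well. Rpa1 gave -0.02, 0.07 and -0.28 against 0.44, -0.02 and 0.02 (0.22, SE 0.18, adjusted p = 0.710). Rpa3 gave -0.14, 0.17 and -0.13 against 0.36, 0.06 and -0.06 (0.15, SE 0.17, adjusted p = 0.809). Mutant 1 was the highest array of Rpa1 and Rpa3, and without it Rpa1 read 0.077 and Rpa3 read 0.031. Of the enzymes that process Okazaki fragments, the flap nuclease Fen1 gave -0.28, 0.03 and -0.72 against 0.63, 0.22 and -0.03 (0.59, SE 0.24, adjusted p = 0.374). Mutant 3 overlapped with wild type 2 on it. The ligase Lig1 had a smaller difference without overlap, -0.30, -0.05 and -0.16 against 0.22, 0.15 and 0.05 (0.31, SE 0.15, adjusted p = 0.483). Uhrf1 brings the maintenance DNA methyltransferase to newly copied DNA; it gave -0.22, -0.05 and -0.78 against 0.68, 0.70 and 0.05 (0.82, SE 0.25, adjusted p = 0.217), and its second probe set read 0.64.

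The same arrays recurred at the border between the groups. Over the 35 genes, wild type 2 was the highest of its group in 24 and mutant 3 the lowest of its group in 21. Per array, the median over the 35 genes was -0.30, -0.06 and -0.32 in wild type and 0.33, 0.24 and 0.06 in mutants. Where the groups were apart, the median gap between the lowest mutant and the highest wild type array was 0.172. Most of the separations were therefore narrow, and those of Rrm2, Mcm3 and Mcm6 were the widest. Single arrays also moved other members by over 1.5 times. Without wild type 3, Cdt1 read 0.29, Fen1 0.39, Pola2 -0.18 and Tyms -0.06. Without mutant 1, Mcm4 read 0.47 and Rfc5 0.13, and without mutant 2, Cdc6 read 0.32, Prim2 0.37 and Gins2 0.035. None of these genes passed with all 6 arrays. By the hybridization controls, the dim arrays (2 wild type, 1 mutant) gave a median difference of 0.40 over the 79 probe sets and the bright arrays (1 wild type, 2 mutant) also 0.40, each with 65 of 79 above 0. With that split as a block, 6 member probe sets passed, while calls over all probe sets, in either direction, rose from 211 to 790.

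Other replication genes had smaller differences. Of 42 measured genes outside the 35, 26 read above 0 and 16 below, with a median of 0.12. The groups were apart as higher in 8, or 19%, against 9.48% of all genes. They were apart as lower in 4 of the 42, against 1840 of all 18193 genes. In limma 0 were called, and 8 had an unadjusted p below 0.05, all higher, against 1495 of the 18193 genes as higher. The smallest p belonged to Topbp1, which helps to switch on the helicase and the checkpoint (0.86, SE 0.17, adjusted p = 0.0684). Next came Clspn, a checkpoint adaptor (0.69, SE 0.17, adjusted p = 0.129). Dbf4, the activator of the kinase Cdc7, followed (0.63, SE 0.16, adjusted p = 0.129). Named after its values were seen, the lowest was Timeless, a fork protection factor, at -0.61 (SE 0.305, adjusted p = 0.505), while its partner Tipin was at 0.34. Whether both sets of replication genes differ from each other was not tested.

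Mitosis genes, which act later in the cycle, read higher in the same way. All 29 measured were above 0 by their most variable probe set, against 45.9% of all genes, with a median of 0.77. The groups were apart as higher in 23, or 79.3%, against 9.48% of all genes. By probe set, 54 of 61 were above 0 and 7 below, against 47.0% of all probe sets above 0. Of the 61, 31 were apart as higher, against 8.73% of all probe sets, and 1, of Bub1b, as lower, against 9.10%. In limma 0 of the 29 genes passed, while 23 had an unadjusted p below 0.05, all higher, against 1495 of all 18193 genes as higher. Tpx2, a spindle assembly factor, had the smallest p (0.89, SE 0.16, adjusted p = 0.0526), then the kinetochore gene Spc25 (0.99, SE 0.19, adjusted p = 0.0606) and the spindle checkpoint gene Mad2l1 (0.83, SE 0.16, adjusted p = 0.0606). Without wild type 2, 2 mitosis genes passed, where 155 of all probe sets passed in either direction. With the hybridization control split as a block 9 did, where 790 of all probe sets did.

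**Figure D4:**
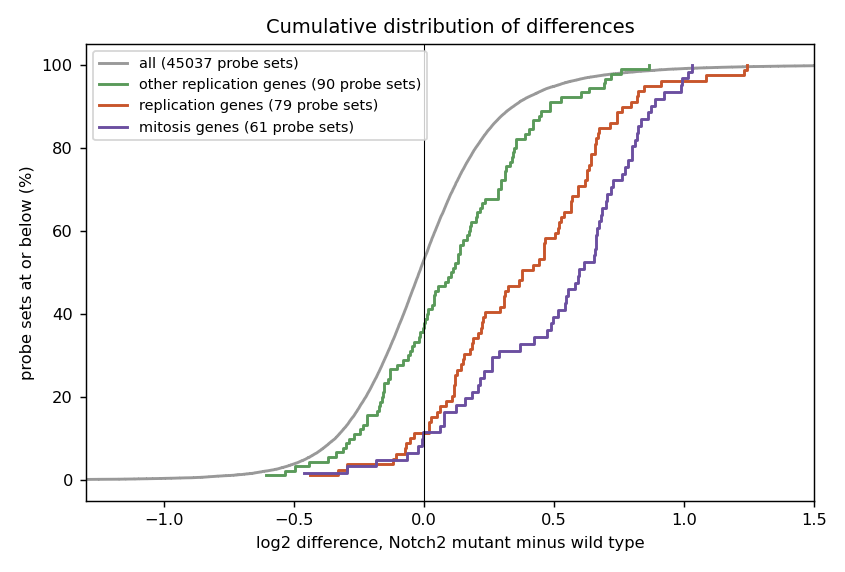
Share of probe sets (y axis, percent) with a log2 difference, mutant minus wild type, at or below the value on the x axis, for all probe sets and for 3 gene groups. The curve of the 79 replication gene probe sets (median 0.38) lies over most of its range between that of the 90 other replication probe sets (median 0.11) and that of the 61 mitosis probe sets (median 0.60).

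Markers of other cell types also read higher in mutants, although the labels state that tissue around the lens was dissected away. Of 22 measured retinal neuron and progenitor markers, all 22 were above 0 and 10 passed as higher, against 0.489% of all genes, with a median of 1.86. Their median per array was -1.03, -0.43 and -1.44 in wild type and 0.73, 1.14 and 0.42 in mutants. Wild type 2 was the highest wild type array and mutant 3 the lowest mutant array there, as for the replication genes. Of 15 macrophage markers 14 were above 0 and 0 passed. In limma 8 had an unadjusted p below 0.05 as higher and 1 as lower, against 1495 and 1335 of all 18193 genes. The median of the macrophage markers per array was -0.89, -0.03 and -1.38 in wild type and 0.04, 0.26 and 0.47 in mutants. Wild type 2 was again the highest wild type array, but mutant 3 was the highest mutant array, unlike for the replication genes. Markers of the lens itself went the other way: 8 of 10 lens epithelium markers were below 0 and 3 passed as lower (median -0.87), and 9 of 11 lens fibre markers were below 0 and 1 passed as lower (median -0.38), where 0.258% of all genes passed as lower. Since the values are centred, no marker could be called absent. The part of these cell types in the replication gene values was not tested.

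**Figure D5:**
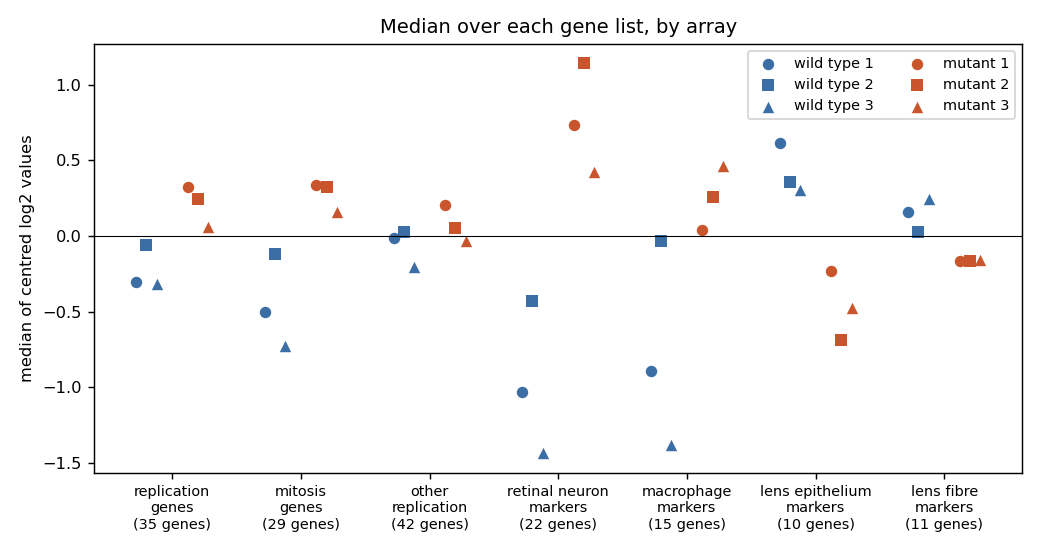
Median of centred log2 values (y axis) over each gene list, 1 probe set per gene, in 3 wild type (blue) and 3 mutant (orange) arrays. The replication, mitosis, retinal neuron and macrophage lists place all mutant arrays above all wild type arrays, the other replication list does not separate them, and the lens epithelium and lens fibre lists place them below.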

How the data were processed

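Lenses of 6 mouse embryos were measured on 1-colour oligonucleotide arrays. The deposited log2 values come from RMA, as named in the submitters' processing notes without a version. The files do not state the log base; base 2 is assumed because RMA writes it. The deposited rows have medians of 0 to within 5e-07, so they were centred per probe set, a step no source used here describes. Depth has no meaning for arrays, and their number limits the precision.

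Of 45101 probe sets, 64 controls were left out. Genes were named from the platform annotation (34945 probe sets with 1 symbol, 932 with several, 9160 with none). All 35 member symbols matched the RefSeq table of GRCm38.p6. The files name no build, and coordinates belong to the RefSeq promoter table.

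limma 3.58.1 in R 4.3.3 (lmFit, eBayes, no covariate) was fitted on all 45037 probe sets, with Benjamini-Hochberg adjustment and a threshold of 0.05. The fit was also run on simulated, independent probe sets, which checks the code and not the results for these genes. Each gene was represented by its probe set of greatest spread across all 6 arrays, which favours large values in either direction. That probe set is of the _x_at kind for Mcm4, Mcm5, Mcm6, Rfc2 and Rrm2. For Mcm3, Mcm7, Gins2 and Rfc4 it is of the _s_at kind. All members are named by role. Array values are given for calls, for the largest and smallest difference of each role and for members whose probe sets disagree in sign with one at 0.3 or more; those of further members were added after their values were seen. Of the other lists, the 3 genes with the smallest p are named. The members and gene lists were chosen with earlier results of these data known. The labels call the arrays biological replicates. Alternatives are given in the closing section.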

Additional observations from a re-analysis of the deposited data

How the results depend on the processing

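The direction of 32 of the 35 genes held wherever it could be computed, in 9 alternative settings and with each array left out. The 3 exceptions were near 0. Tyms is counted among the 32, but its 4 probe sets lay on both sides of 0, from -0.29 to 0.42. Robust variance, the replicate block and the filters on probe sets leave a difference unchanged, so its direction was fixed there. Subtracting array medians moved all differences by the same small amount. Orc1 (0.02) read -0.12 with the hybridization control split as a block and -0.10 to 0.25 with 1 array left out. Mcm10 (-0.12) read 0.16 with array weights and 0.064 as the mean of its probe sets, and -0.36 to 0.16 with 1 array left out. Rfc1 (0.02) read -0.11 after repeated quantile normalisation and -0.16 with array weights, and -0.28 to 0.26 with 1 array left out.

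Counts moved more. The 2 member probe sets that passed became 4 after repeated quantile normalisation, 7 with array weights, 6 with the split as a block, 1 without _x_at and _s_at probe sets and 0 whichever array was left out. By 1 probe set per gene, 1 gene became 2, 3, 5 and 0 in the same order and 0 with any 1 array left out. Without _x_at and _s_at probe sets that 0 leaves out Rrm2, whose most variable probe set is of the _x_at kind and was not replaced. The count was 2 among probe sets more variable than the median and 2 with the replicate block. With the mean of a gene's probe sets it was 3. Mitosis genes that passed went from 0 to 7, 7 and 9 under repeated quantile normalisation, array weights and the split as a block. They went to 4 among the more variable probe sets, 4 with the replicate block and 6 with the mean of probe sets. With 1 array left out they were 0 to 2. Other replication genes went from 0 to 1 under repeated quantile normalisation, array weights, the split as a block and the replicate block. Over all probe sets, 211 calls became 584, 889, 790, 738 among the more variable, and 530 with the replicate block, and 7 to 155 with 1 array left out. Among the more variable probe sets 46 members were above 0 and their median was 0.57. This setting keeps fewer probe sets, and it keeps them by a spread that a difference between groups widens. The mean of a gene's probe sets gave a median of 0.35 over the 35 genes. In the replicate block fit the number pairs arrays only by name: deviations of same-numbered arrays correlated at 0.326, -0.142 and 0.258. The cause of the other changes was not tested.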
